A study of Rattus norvegicus with 16 samples.

Results

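Matrix metalloproteinases (Mmp), Adamts proteases and their tissue inhibitors (Timp) were followed in rat sciatic nerve before and after a crush. All genes named Mmp, Adamts or Timp1 to Timp4 followed by their number were taken, which gave 46 genes (23 Mmp, 19 Adamts and 4 Timp) of the 31038 genes quantified. RNA was sequenced from Schwann cells purified without culture, and also from the intact nerve, of rats labelled postnatal day 18. The nerves were left uncrushed or were collected 3, 5 or 7 days after a crush. That made 8 groups of 2 libraries each, 16 libraries in all. Schwann cells were dissociated, passed over plates that remove cells bearing CD45 (leukocytes) and Thy1 (fibroblasts among others), and then collected by immunopanning on the O4 surface antigen, each purified sample pooled at least 10 nerves, and only the segment distal to the crush was taken. Uncrushed nerves gave the matching segment and had no sham operation. The crush was made at postnatal day 18, so age and time after crush cannot be told apart. Nothing in the labels says that the 2 libraries of a group came from separate surgeries, so p-values measure the spread between these pools.

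Mmp enzymes are zinc proteases that cut collagens, laminins and other matrix proteins, as well as growth factors and their receptors. Membrane-type members are anchored at the cell surface, where Mmp14 activates the secreted gelatinase Mmp2. Adamts enzymes carry thrombospondin repeats and cut proteoglycans such as aggrecan and versican, or trim procollagens. Timp proteins bind and block these enzymes, and Timp3, which stays bound to matrix, also blocks several Adamts proteases. In an injured nerve, proteolysis of the basal lamina and of growth-inhibiting proteoglycans accompanies the clearance of myelin and the regrowth of axons.

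Depth lay between 10555067 and 27562637 expected counts per library. In Schwann cell libraries the summed level of 7 Schwann cell markers was 4070 to 9130 FPKM (fragments per kilobase of transcript, scaled to the fragments of the library). That of 7 macrophage markers was 7.2 to 67.1 FPKM in the same libraries, against 385 to 2500 FPKM in whole nerve. Fibroblast markers summed to 244 to 581 FPKM in Schwann cells and 4130 to 6380 FPKM in whole nerve. A fibroblast marker of that list, Col1a2, was listed at 0 expected counts in 4 of the whole nerve libraries and at 16748 in another, so a listed 0 in these files is not evidence that a transcript was absent. In whole nerve, fewer cells of a type and less RNA per cell cannot be told apart.

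Some of the 46 genes were hardly measured. With a floor of 3 expected counts, 6 genes (Mmp1, Mmp1b, Mmp3, Mmp10, Mmp21 and Mmp28) were at or below it in every library of all 8 groups. In Schwann cells 16 genes were at or below the floor in all 4 groups, and 10 of these rose above it in a whole nerve group. A group mean of at least 1 FPKM was reached by 32 genes, 24 of them in a Schwann cell group and all 32 in a whole nerve group. The filter on low counts left 26 genes to test in Schwann cells and 33 in whole nerve.

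Of the 16 genes at the floor in Schwann cells, 10 lie side by side, and Mmp21, Mmp25, Mmp28, Adamts13, Adamts18 and Adamts19 lie elsewhere. In the RefSeq annotation of the GRCr8 assembly, Mmp13, Mmp12, Mmp1b, Mmp3, Mmp1, Mmp10, Mmp8, Mmp27, Mmp20 and Mmp7 are neighbouring protein-coding genes, and no Schwann cell library held more than 2 expected counts of any of them. These genes include the collagenases, which open the collagen triple helix, 2 stromelysins, the macrophage elastase Mmp12 and the matrilysin Mmp7. In whole nerve the highest count among them was 48, for Mmp12. The bases before the start site of 4 of these genes follow, since each carries the same 2 short motifs. The promoters of Timp1 and Adamts4, with no exact match to either motif in the bases shown, are given beside them. Capitals mark exact matches to TGANTCA, a consensus AP-1 motif, and TATAAA, the TATA motif, each searched on both strands. Near matches, such as tgagtaa in the Timp1 run, were not searched. All runs are the 120 bases before the start site in RefSeq on GRCr8, read 5′ to 3′ on the strand of the gene.
Mmp13 (chr8:12782709-12782828, plus strand): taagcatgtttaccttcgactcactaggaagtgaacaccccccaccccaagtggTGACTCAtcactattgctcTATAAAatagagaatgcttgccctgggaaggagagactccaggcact
Mmp12 (chr8:12866532-12866651, plus strand): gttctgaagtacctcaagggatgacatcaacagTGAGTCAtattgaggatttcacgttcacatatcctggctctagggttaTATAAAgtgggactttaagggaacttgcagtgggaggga
Mmp3 (chr8:12925161-12925280, plus strand): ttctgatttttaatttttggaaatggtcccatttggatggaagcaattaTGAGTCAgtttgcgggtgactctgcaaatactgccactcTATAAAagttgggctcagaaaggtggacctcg
Mmp7 (chr8:13132923-13133042, plus strand): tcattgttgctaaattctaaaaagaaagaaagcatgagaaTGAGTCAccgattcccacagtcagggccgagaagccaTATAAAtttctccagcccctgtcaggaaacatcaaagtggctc
Timp1 (chrX:3771123-3771242, minus strand): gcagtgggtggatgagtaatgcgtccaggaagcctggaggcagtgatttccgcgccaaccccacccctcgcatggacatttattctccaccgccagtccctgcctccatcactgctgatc
Adamts4 (chr13:86202891-86203010, plus strand): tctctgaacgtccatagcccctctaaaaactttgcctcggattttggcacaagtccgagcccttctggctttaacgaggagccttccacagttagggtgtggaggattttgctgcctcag

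Promoter windows of 300 bases, from 250 before to 50 after the start site, were found for 35 of the 46 genes. TGANTCA stood in the windows of 7 of the 10 neighbouring Mmp genes (1 window each) and in none of the 32 windows of the 25 other genes, against 7.33% of all 33469 windows of the same length. TATAAA stood in 8 of the 10 windows and in 4 of the 32 (12.5%), against 14.2% of all windows. The motifs GGAATG, of TEAD factors, and ACAAAG, of SOX factors, were searched as well. GGAATG stood in 3 of the 42 windows of the family (7.14%; Mmp27, Timp1 and Timp4) and ACAAAG in 2 (4.76%; Adamts4 and Timp2), against 14.2% and 18.8% of all windows. A match describes letters and does not show that a factor binds, and the lack of an exact match does not show that none binds.

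The inhibitors made up most of the family's transcripts. Summed FPKM of the 4 Timp genes was 69.9% to 76.1% of that of all 46 genes in Schwann cell libraries and 63.7% to 70.6% in whole nerve libraries. The 23 Mmp genes together held 5.81% to 12.8% in Schwann cells and 18.6% to 22.5% in whole nerve. The map of levels shows bright rows for Timp1, Timp2 and Timp3, and single rows, such as Timp4 and Adamts16, that are dark in the Schwann cell libraries.

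**Figure D1:**
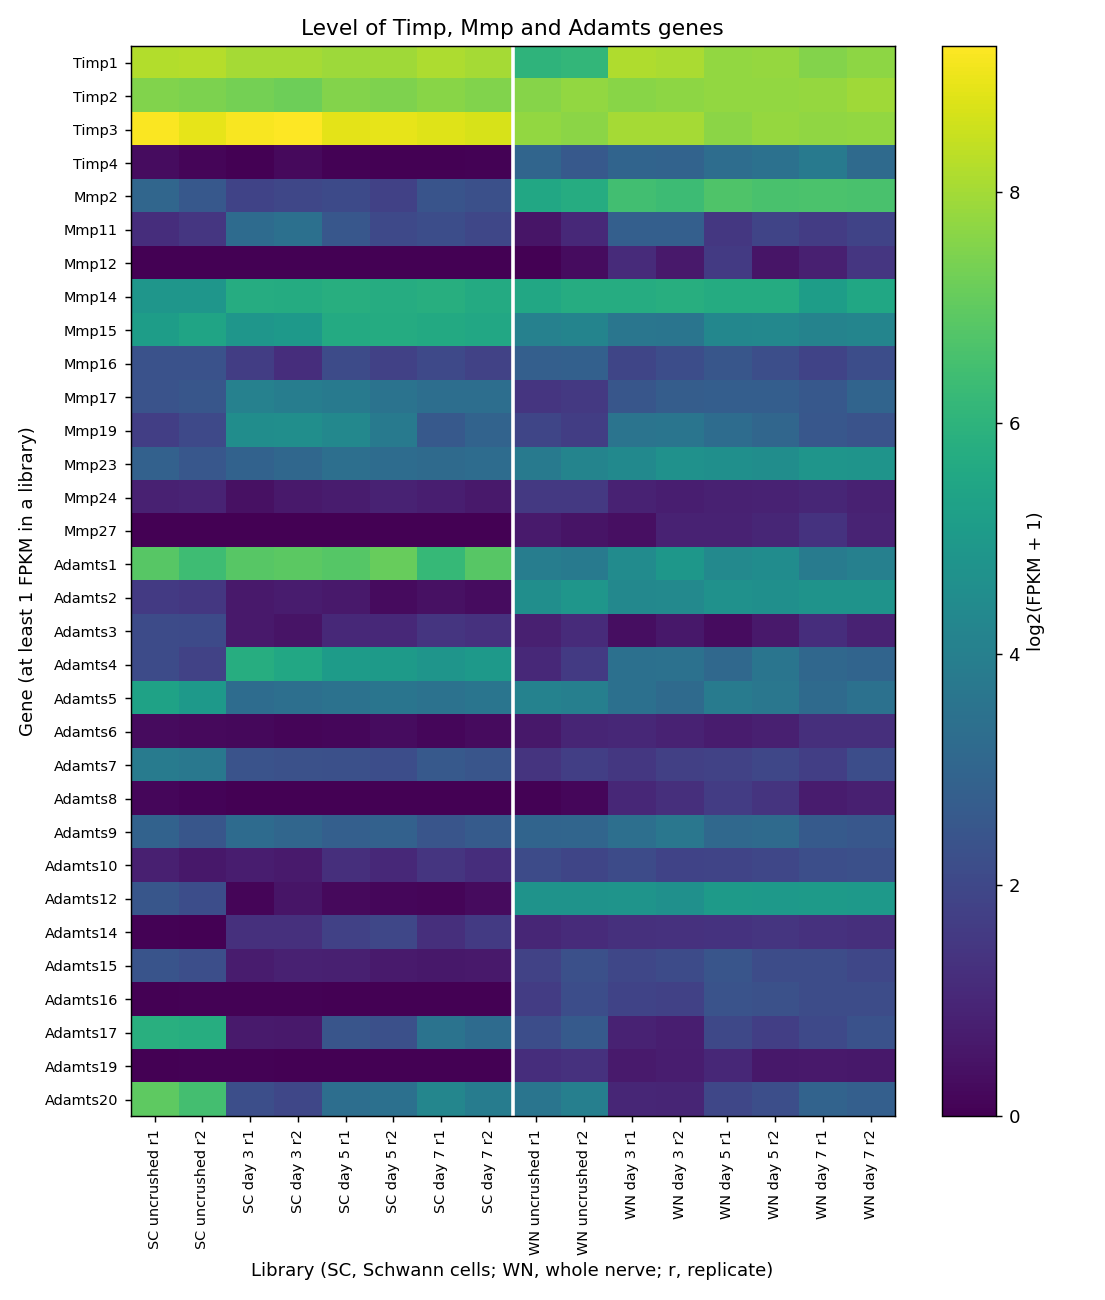
Level of the genes that reached 1 FPKM in a library, as log2(FPKM + 1) by colour, in the 8 Schwann cell (SC) and 8 whole nerve (WN) libraries (columns, r for replicate). Timp1 is dim only in the 2 uncrushed whole nerve libraries, and Adamts17 and Adamts20 are bright in uncrushed Schwann cells.

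Timp3 ranked highest in every Schwann cell group. It stood at 594 and 487 FPKM in the uncrushed pair, at 582 and 614 on day 3, at 473 and 486 on day 5 and at 454 and 421 on day 7. The fall on day 7 was small (log2 fold change −0.34 ± 0.11 (SE), adjusted p = 0.0236 in edgeR), and the call was lost without uncrushed replicate 1 (adjusted p = 0.111) or day 7 replicate 2 (adjusted p = 0.125), and on library totals (adjusted p = 0.0524). Leaving out a library leaves its group with 1 library, which is then assumed to vary like the other groups of the fit. In whole nerve Timp3 lay lower throughout, at 201 to 260 FPKM.

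Timp1, a secreted inhibitor known to be induced by injury, separated purified cells from whole nerve. In Schwann cells it was at 294 and 302 FPKM before the crush, 255 and 258 on day 3, 237 and 243 on day 5 and 279 and 256 on day 7. Every injured Schwann cell library lay below the uncrushed pair, but only the day 5 difference passed the test (log2 fold change −0.40 ± 0.09, adjusted p = 0.00545 in edgeR). In whole nerve it was at 64.3 and 70.0 FPKM before the crush, and at 284 and 271, 214 and 220, and 187 and 203 on the 3 days. Whole nerve Timp1 rose on each day without overlap, by 1.66 ± 0.09, 1.29 ± 0.09 and 1.15 ± 0.09 on the log2 scale (adjusted p in edgeR 3.33e-07, 2.88e-06 and 8.92e-06). The change after crush differed between the tissues on each day, by −1.96, −1.81 and −1.50 on the log2 scale (Schwann cells minus whole nerve, adjusted p in edgeR 1.04e-07, 2.39e-07 and 1.53e-06). Before the crush Schwann cells held more of it than whole nerve (log2 difference 1.89 ± 0.09, adjusted p = 7.9e-10 in edgeR), while on days 3 and 5 the difference was −0.07 ± 0.09 and 0.08 ± 0.09 (adjusted p 0.506 and 0.477). On day 7 Schwann cells were again above whole nerve, by 0.39 ± 0.09 on the log2 scale (adjusted p = 0.00204 in edgeR). Macrophage markers in whole nerve summed to 385 and 397 FPKM before the crush and to 1240 to 2500 FPKM after it. Their part in the whole nerve rise, and that of the dissociation that only Schwann cells went through, was not tested.

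Timp2, which takes part in the activation of Mmp2 by Mmp14, stood at 149 to 197 FPKM in Schwann cells and at 189 to 246 FPKM in whole nerve. No day passed the test in Schwann cells (log2 fold changes −0.14 ± 0.10, 0.01 ± 0.10 and 0.06 ± 0.10, adjusted p 0.263, 0.926 and 0.657 in edgeR). Timp4 was far higher in whole nerve. It was at 5.07 to 12.6 FPKM there and at 0 to 0.24 FPKM in Schwann cells, and its change after crush passed the test on no day in whole nerve (adjusted p 0.392, 0.523 and 0.302 in edgeR).

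The scaling matters for whole nerve. Without the TMM factors, which correct library totals for a few dominant transcripts, log2 fold changes against uncrushed moved by a median over all genes of 0.41, 0.40 and 0.41 on days 3, 5 and 7. The share of all called genes that were higher moved from 50.7%, 49.2% and 49.3% to 79.2%, 81.2% and 85.8%. FPKM carries the uncorrected totals, so a whole nerve FPKM that stays level reads as a small fall in the test. Timp2 is such a case, with log2 fold changes of −0.41 on day 3 and −0.33 on day 5 (adjusted p 0.00463 and 0.0181 in edgeR) that became 0.00 and 0.07 on library totals. The same turn of sign touched the whole nerve falls of Timp3 and Mmp14 on day 5, and of Adamts2, Mmp15 and Timp3 on day 7. Between the uncrushed tissues this median move was 0.31, and the share of higher calls went from 45.2% to 58.9%. For the tissue differences in injury effect it was −0.36, −0.26 and −0.26, and that share went from 47.4%, 45.8% and 44.6% to 19.5%, 24.9% and 23.2%, and for Schwann cells on day 7 against day 3 the share moved from 48.8% to 62.5%.

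In Schwann cells, 18 of the 26 tested genes changed on day 3, 7 higher and 11 lower, where 52.5% of all genes tested were called. On day 5 it was 20 (9 higher, 11 lower, background 54.6%) and on day 7 it was 19 (8 higher, 11 lower, background 46.9%). Of all genes tested, 25.7%, 25.6% and 21.9% were called lower on the 3 days, and 26.9% higher on day 3, 29.0% on day 5 and 3747 of 14961 on day 7. Of the 9 tested Mmp genes 4 were higher, 3 lower and 2 not called on day 3, and of the 14 tested Adamts genes 3 were higher, 8 lower and 3 not called. The median log2 fold change on day 3 was 0.42 over the Mmp and −1.56 over the Adamts genes, beside 0.00 over all genes, and this difference was not tested. Markers of other cells moved in the same comparison: 2 of 6 tested macrophage markers and 2 of 2 tested mast cell markers were called higher. Of the mast cell markers, Kit was alike in the day 3 pair (7.16 and 7.12 FPKM), while Cpa3 was higher in replicate 2 (3.06 and 12.3). Replicate 2 of day 3 held the highest macrophage sum (67.1 FPKM). The part of such cells, after the CD45 plate, was not tested, and leaving out that replicate changed the count of called genes little. In whole nerve 21 of 33 changed on day 3 (9 higher, 12 lower, background 45.6%), 20 on day 5 (8 higher, 12 lower, background 38.4%) and 17 on day 7 (6 higher, 11 lower, background 31.3%). Of all genes there, 23.1%, 18.9% and 15.4% were higher and 22.5%, 19.5% and 15.9% lower.

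**Figure D2:**
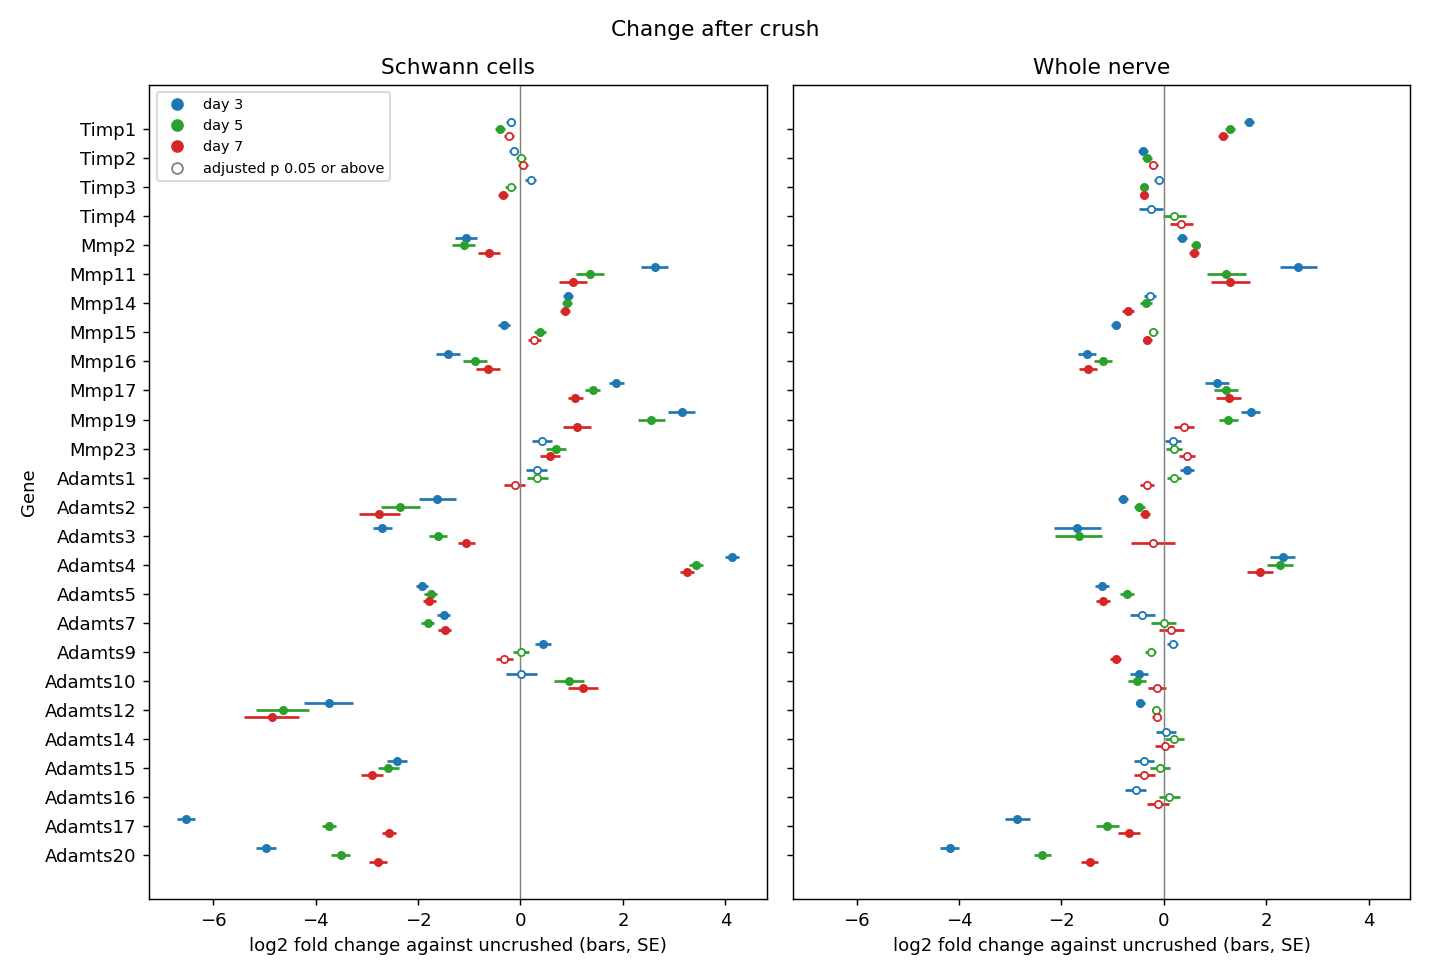
Log2 fold change against uncrushed of the named genes on day 3 (blue), day 5 (green) and day 7 (red) in Schwann cells (left) and whole nerve (right), with bars for the SE and open points for an adjusted p of 0.05 or above. Adamts17, Adamts20 and Adamts12 lie far to the left and Adamts4, Mmp19 and Mmp11 to the right in Schwann cells. Comparisons in which a group was at the floor are left out.

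Adamts4, a proteoglycanase that cuts aggrecan and versican, rose most among the genes above the floor in Schwann cells. It went from 3.35 and 2.57 FPKM to 53.9 and 45.9 on day 3, 32.7 and 32.1 on day 5 and 27.8 and 30.4 on day 7. No injured library came near the uncrushed pair, and the log2 fold changes were 4.12 ± 0.14, 3.43 ± 0.14 and 3.25 ± 0.14 (adjusted p 5.45e-08, 1.28e-07 and 2.74e-07 in edgeR). In whole nerve it rose from 1.12 and 1.95 FPKM to 9.79 and 9.97, then 7.80 and 11.2, then 7.62 and 6.90. The rise was larger in Schwann cells by 1.70, 1.03 and 1.25 on the log2 scale (adjusted p in edgeR 0.000822, 0.0207 and 0.00758), but without whole nerve uncrushed replicate 2 the day 5 and day 7 calls were lost (adjusted p 0.18 and 0.0819). The day 5 call was also lost without Schwann cells uncrushed replicate 2 (adjusted p = 0.0676) or whole nerve day 5 replicate 1 (adjusted p = 0.065), and on library totals (adjusted p = 0.0758).

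Adamts14, one of the procollagen N-proteinases, started at the floor in Schwann cells, with 3 and 1 expected counts in the uncrushed pair. It had 110 and 195 on day 3, 227 and 243 on day 5 and 121 and 122 on day 7, at least 32.2-fold, 58.4-fold and 35.9-fold higher with the TMM scaling of the test. In whole nerve it stayed between 0.97 and 1.71 FPKM, and no day passed the test (adjusted p 0.895, 0.436 and 0.972 in edgeR). The injury effect differed between tissues on all 3 days (adjusted p 1.11e-06, 3.34e-07 and 1.08e-06 in edgeR). Its relatives moved the other way. Adamts3 fell in Schwann cells from 3.35 and 3.20 FPKM to 0.56 and 0.42 on day 3 and came back to 1.71 and 1.49 on day 7, and Adamts2 fell from 1.95 and 1.86 FPKM to 0.57 and 0.62 and on to 0.32 and 0.25. Adamts2 was far more abundant in whole nerve, at 19.1 to 28.0 FPKM.

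Adamts17 and Adamts20 fell most on day 3, while on days 5 and 7 the fall of Adamts12, a gene of few counts there, was larger. By day 7 the falls of Adamts15 (mean 3.96 to 0.54 FPKM) and Adamts2 (1.91 to 0.285 FPKM) were about as large as theirs. Adamts20, a proteoglycanase, stood at 124 and 89.5 FPKM in uncrushed Schwann cells, 4th of all 46 genes though overlapping Adamts1, and dropped to 3.70 and 2.91 on day 3. It then stood at 9.24 and 9.69 on day 5 and at 17.9 and 13.9 on day 7, and log2 fold changes against uncrushed were −4.96 ± 0.19, −3.51 ± 0.18 and −2.78 ± 0.17 (adjusted p 7.77e-08, 4.71e-07 and 2.26e-06 in edgeR). Adamts17, whose relatives act on microfibrils, went from 56.3 and 53.0 FPKM to 0.61 and 0.54, then 4.48 and 3.83, then 10.5 and 8.39. Its log2 fold changes were −6.52 ± 0.17, −3.74 ± 0.14 and −2.57 ± 0.14 (adjusted p 4.09e-08, 1.01e-07 and 7.76e-07 in edgeR). Both were higher on day 7 than on day 3, by 2.18 ± 0.18 and 3.96 ± 0.16 on the log2 scale (adjusted p 5.08e-05 and 2.1e-06 in edgeR).

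Whole nerve showed both falls from a lower start. Adamts20 went from 11.03 and 15.15 FPKM to 1.00 and 0.92 on day 3 and to 6.74 and 5.93 on day 7. Adamts17 went from 3.52 and 5.22 FPKM to 0.85 and 0.73 on day 3 and to 3.12 and 4.05 on day 7. The fall of Adamts17 was deeper in Schwann cells on each day (log2 difference −3.77, −2.76 and −2.0, adjusted p 9.86e-07, 4.12e-06 and 7.07e-05 in edgeR). That of Adamts20 was deeper on days 5 and 7 (−1.26 and −1.44, adjusted p 0.00235 and 0.000855), while the day 3 call (−0.89, adjusted p = 0.029) was lost when any of 5 libraries was left out (adjusted p up to 0.122 for whole nerve uncrushed replicate 1). The plot of single libraries shows how little the pairs differ beside these changes.

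**Figure D3:**
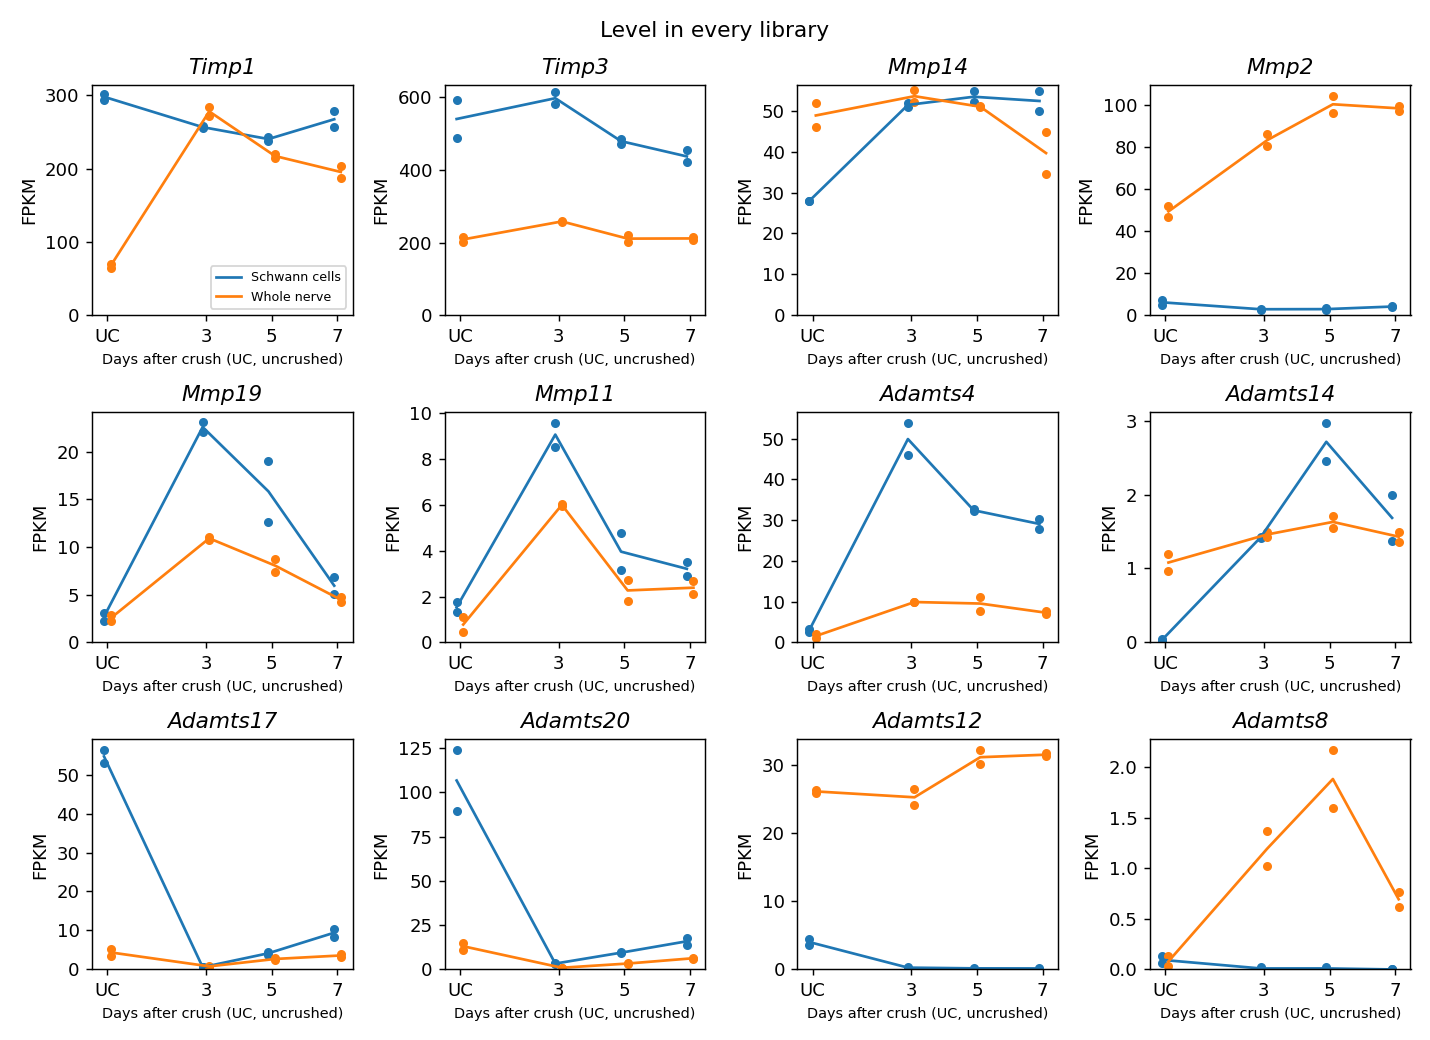
FPKM (vertical axis, from 0) of 12 genes in every library against days after crush (UC, uncrushed) in Schwann cells (blue) and whole nerve (orange), with points for libraries and lines through the group means. Timp1 rises only in whole nerve, Adamts4 rises and Adamts17 and Adamts20 fall in both, and Mmp2 and Adamts12 stand high in whole nerve alone.

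Other proteoglycanases took other courses in Schwann cells. Adamts1 stayed at 72.3 to 139 FPKM in Schwann cells, where no day passed the test (adjusted p 0.222, 0.201 and 0.69 in edgeR), and was the 4th gene on each day after crush. Before the crush it stood 2.53 ± 0.21 above whole nerve on the log2 scale (adjusted p = 1.02e-07 in edgeR). In whole nerve Adamts1 went from 14.1 and 13.2 FPKM to 21.1 and 28.7 on day 3, 19.6 and 21.7 on day 5 and 13.5 and 15.3 on day 7. Its rise on day 3 (0.46 ± 0.13 on the log2 scale, adjusted p = 0.018 in edgeR) was lost without uncrushed replicate 2 or day 3 replicate 2 (adjusted p 0.0798 and 0.183). Adamts5, its neighbour in the genome and, like Adamts4, a main aggrecanase, fell from 39.4 and 31.6 FPKM to 8.57 and 9.40 on day 3 and to 10.26 and 10.99 on day 7 (log2 fold change on day 3 −1.92 ± 0.12, adjusted p = 1.48e-06 in edgeR). Adamts15 fell from 4.25 and 3.67 FPKM to 0.63 and 0.79 on day 3 in Schwann cells and kept to 2.54 to 4.39 FPKM in whole nerve. Adamts8, which lies beside Adamts15, was at 0 to 7 expected counts in Schwann cells, and in whole nerve it went from 2 and 5 expected counts to 70 and 103, 126 and 103, and 31 and 38. Adamts9 stood at 6.51 and 4.54 FPKM in uncrushed Schwann cells, 8.48 and 7.34 on day 3, 5.94 and 6.28 on day 5 and 4.45 and 5.35 on day 7. It changed by 0.44 ± 0.16 on day 3 in Schwann cells (adjusted p = 0.0369 in edgeR), a call lost without uncrushed replicate 2, day 3 replicate 1 or day 3 replicate 2 (adjusted p 0.266, 0.214 and 0.0613) and with upper quartile or RLE scaling (adjusted p 0.0787 and 0.0539) and on library totals (adjusted p = 0.0795). In whole nerve it was at 6.89 and 7.11 FPKM before the crush, 9.55 and 11.9 on day 3, 7.72 and 8.16 on day 5 and 5.14 and 4.73 on day 7, where the fall passed the test (−0.94 ± 0.12, adjusted p = 0.000142 in edgeR).

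Adamts12 and Adamts7, which cut cartilage oligomeric matrix protein, both fell in Schwann cells. Adamts7 went from 13.34 and 11.98 FPKM to 4.17 and 3.95 on day 3 (log2 fold change −1.49 ± 0.13, adjusted p = 8.67e-06 in edgeR), and stood at 3.75 and 3.55 on day 5 and 4.96 and 4.42 on day 7. In whole nerve it was at 1.60 to 3.51 FPKM and passed the test on no day (adjusted p 0.18, 0.997 and 0.691). Adamts12 went from 4.52 and 3.53 FPKM to 0.10 and 0.43 on day 3 and to 0.09 and 0.20 on day 7, while whole nerve held 24.1 to 32.2 FPKM. The day 3 pair differed, with 13 expected counts in replicate 1 and 100 in replicate 2, and replicate 2 also held the highest macrophage marker sum of the Schwann cell libraries (67.1 FPKM against 10.4). Fibroblast markers Dcn (6.77 and 17.9 FPKM), Lum (2.72 and 8.49), Pdgfra (0.14 and 0.60) and Fn1 (10.5 and 21.1) were also higher in replicate 2. Col1a1 (184 and 179) and Col1a2 (83.7 and 82.8) were not. The endothelial marker Cdh5 (0.13 and 1.42) and the pericyte marker Rgs5 (3.23 and 10.2) were higher in it too. The log2 fold change was −3.75 ± 0.47 on day 3 and −4.86 ± 0.54 on day 7 (adjusted p 0.000124 and 7.8e-05 in edgeR). Fibroblast markers summed to 581 and 328 FPKM in the uncrushed Schwann cell pair and to 288 and 310 FPKM on day 3. Without Col1a2 the sums were 332 and 315 FPKM before the crush and 204 and 227 FPKM on day 3, most of it Col1a1. Of the 6 fibroblast markers tested, 1 was called higher and 1 lower on day 3, with a median log2 fold change of −0.03, and their part in this fall, after the Thy1 plate, was not tested. Adamts10 went from 0.78 and 0.52 FPKM to 1.37 and 1.12 on day 5 and 1.67 and 1.31 on day 7 in Schwann cells (day 7 log2 fold change 1.22 ± 0.29, adjusted p = 0.00708 in edgeR), while whole nerve held 2.63 to 3.85 FPKM. Adamts16 was at 0 to 0.05 FPKM in Schwann cells and at 2.14 to 4.11 FPKM in whole nerve, and before the crush it was at least 82.4-fold lower in Schwann cells with TMM scaling and 66.6-fold on library totals.

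Among Mmp genes of Schwann cells, Mmp19, a secreted enzyme that cuts basement membrane proteins, rose most. It went from 2.28 and 3.09 FPKM to 22.0 and 23.1 on day 3, 19.0 and 12.6 on day 5 and 5.05 and 6.82 on day 7. The log2 fold change was 3.14 ± 0.26, 2.56 ± 0.26 and 1.11 ± 0.27 (adjusted p 6.71e-06, 3.1e-05 and 0.00771 in edgeR), with the day 7 call lost without uncrushed replicate 1 (adjusted p = 0.0588). Whole nerve went from 2.85 and 2.18 FPKM to 10.76 and 11.04, then 8.70 and 7.39, then 4.72 and 4.21, so that both tissues were highest on day 3.

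Mmp11, a stromelysin that furin activates inside the cell, followed the same course. In Schwann cells it went from 1.32 and 1.74 FPKM to 8.55 and 9.60 on day 3 and to 3.52 and 2.90 on day 7, and in whole nerve from 0.44 and 1.11 to 5.96 and 6.05 and then 2.11 and 2.66. The day 3 log2 fold change was 2.62 in both tissues (SE 0.26 and 0.36, adjusted p 2.58e-05 and 0.000189 in edgeR). Mmp11 partly overlaps Chchd10, which had a mean of 1.15 FPKM in uncrushed and 8.31 FPKM in day 3 Schwann cells, and since the strand used for counting is not stated, reads of the pair may be mixed.

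Membrane-type enzymes were the main Mmp transcripts of Schwann cells. Mmp14 was at 27.9 and 28.0 FPKM before the crush and at 49.99 to 54.9 FPKM in all 6 libraries after it, a log2 fold change of 0.93 ± 0.10, 0.91 ± 0.10 and 0.87 ± 0.10 (adjusted p 3.99e-05, 5.07e-05 and 9.6e-05 in edgeR). Whole nerve held 46.0 and 51.8 FPKM before the crush and 34.6 to 55.0 FPKM after it, and the change differed between tissues by 1.10, 1.13 and 1.46 on the log2 scale (adjusted p 0.000136, 0.000113 and 1.43e-05 in edgeR). That difference passed the test under every alternative run, library totals included.

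Mmp17, anchored by a lipid tail, rose in Schwann cells from 4.21 and 4.52 FPKM to 15.7 and 14.2 on day 3 and 9.16 and 9.23 on day 7, and in whole nerve from 1.68 and 1.91 to 4.55 and 5.57 and then 4.89 and 6.97. Mmp16 fell in Schwann cells from 4.10 and 4.09 FPKM to 2.22 and 1.33 on day 3 (log2 fold change −1.42 ± 0.24, adjusted p = 0.000815 in edgeR), and stood at 3.30 and 2.47 on day 5 and 3.13 and 2.58 on day 7. Whole nerve went from 6.02 and 6.11 FPKM to 2.82 and 3.55, then 4.57 and 3.70, then 2.66 and 3.61, lower in all 6 injured libraries. Mmp15 was at 34.4 and 41.3 FPKM before the crush, 27.8 and 30.4 on day 3, and 46.1 to 50.3 FPKM later, and whole nerve stood at 15.7 and 17.0, then 11.4 and 11.2, then 18.5 and 19.0, then 16.8 and 17.8 FPKM. Its small changes on day 3 (−0.33 ± 0.12, adjusted p = 0.044) and day 5 (0.38 ± 0.12, adjusted p = 0.0229) had opposite signs. The day 3 call was lost without uncrushed replicate 2 or either day 3 library (adjusted p 0.169, 0.186 and 0.0782), and the day 5 call without uncrushed replicate 1 or either day 5 library (adjusted p 0.102, 0.0877 and 0.0649).

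The gelatinase Mmp2 was mostly a whole nerve transcript. Whole nerve held 46.5 and 52.1 FPKM before the crush and 86.1 and 80.1, 104 and 96.1, and 99.5 and 96.9 on the 3 days. It was the 4th gene of the family there in every group, although before the crush its libraries overlapped those of Mmp14. Schwann cells held 7.34 and 4.81 FPKM before the crush and 2.45 to 4.33 FPKM after it. The gap between tissues was −3.33 ± 0.17 on the log2 scale before the crush and −4.84, −5.18 and −4.65 on the 3 days (adjusted p at most 8.61e-10 in edgeR). Mmp2 rose in whole nerve by 0.62 ± 0.09 on day 5 and 0.59 ± 0.09 on day 7 (adjusted p 0.000531 and 0.000919) and fell in Schwann cells by 1.06 ± 0.22 on day 3 and 1.11 ± 0.22 on day 5 on the log2 scale (adjusted p 0.00275 and 0.00221). Mmp9, the other gelatinase, was listed at 0 expected counts in uncrushed whole nerve and at 35 and 29 on day 3, at least 5.26-fold higher with TMM scaling and 6.98-fold on library totals, and never passed 4 in a Schwann cell library. The macrophage sum in whole nerve was highest on day 3 (2470 and 2500 FPKM), and the neutrophil sum was 3.52 to 6.53 FPKM before the crush and 7.77 to 11.9 FPKM on day 3. In the test all 7 macrophage markers were called higher on day 3 and none of the 3 neutrophil markers tested was called. Their part was not tested.

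Mmp23, an unusual membrane-tethered member, was at 13.0 and 17.0 FPKM in uncrushed and 19.97 to 27.4 FPKM in injured whole nerve, where no day passed the test (adjusted p 0.368, 0.348 and 0.0513 in edgeR). In Schwann cells it was at 6.36 and 4.66 FPKM before the crush, 6.57 and 7.57 on day 3, 9.40 and 8.70 on day 5 and 8.31 and 8.61 on day 7. The calls on day 5 (log2 fold change 0.69 ± 0.20, adjusted p = 0.0136 in edgeR) and day 7 (0.58 ± 0.20, adjusted p = 0.0362) were lost in DESeq2 (adjusted p 0.0695 and 0.165). Mmp24 fell in whole nerve from 1.89 and 1.89 FPKM to 0.85 and 0.73 on day 3 (log2 fold change −1.66 ± 0.23, adjusted p = 0.000174 in edgeR).

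Between days 3 and 7, 12 of the 26 tested genes changed in Schwann cells (6 higher, 6 lower, background 21.0%, with 10.2% higher and 10.7% lower) and 14 of 33 in whole nerve (6 higher, 8 lower, background 21.2%, with 9.85% higher and 11.4% lower). Both counts fell when some single libraries were left out, which leaves a group with 1 library, and the whole nerve count fell further. The Schwann cell genes that were lower on day 7 included Mmp19 (−2.04 ± 0.24), Mmp11 (−1.59 ± 0.24), Mmp17 (−0.80 ± 0.14) and Adamts4 (−0.87 ± 0.12), and those that were higher included Adamts3 (1.64 ± 0.18), on the log2 scale (adjusted p at most 0.00338 in edgeR).

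Purified cells and whole nerve differed for most of the family. In uncrushed nerve 27 of 33 tested genes differed (11 higher and 16 lower in Schwann cells), where 64.4% of all genes did (29.1% higher, 35.3% lower). Of these 33 genes, 26 also passed the filter on low counts within Schwann cells. The others (Adamts8, Adamts16, Adamts19, Mmp9, Mmp12, Mmp27 and Timp4) passed it only through whole nerve. Their calls could hardly be other than lower in Schwann cells, so the counts of lower genes rest partly on the filter. On day 3 it was 25 (8 higher, 17 lower, background 57.3%, with 24.5% higher and 32.8% lower). On day 5 it was 27 (11 higher, 16 lower, background 51.7%, with 23.2% higher and 28.4% lower), and on day 7 it was 24 (10 higher, 14 lower, background 51.0%, with 22.4% higher and 28.7% lower). With upper quartile scaling the share of called genes that were higher in Schwann cells went from 44.9% to 54.6% on day 5 and from 43.8% to 51.4% on day 7. The injury effect itself differed between the tissues for 15 genes on day 3 (5 higher and 10 lower in Schwann cells, background 26.0%, with 12.3% higher and 13.7% lower). It did for 17 on day 5 (7 higher, 10 lower, background 27.5%, with 12.6% and 14.9%) and for 15 on day 7 (5 higher, 10 lower, background 26.0%, with 11.6% and 14.4%). Dissociation and panning belong to every Schwann cell library and cannot be told apart from the tissue in these 16 libraries. Dissociated nerve, which the study also describes, was not analysed here.

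Genes that act with these proteases were compared on day 3 in Schwann cells, where 52.5% of all genes were called. Of the plasminogen system, 6 of 6 tested genes changed (4 higher, 2 lower), with Serpine2, a serine protease inhibitor, going from a mean of 24.0 to 700 FPKM (log2 fold change 4.92 ± 0.21, adjusted p = 1.32e-07 in edgeR) and Plg, plasminogen itself, from 2.66 to 0.13 FPKM (adjusted p = 9.58e-05). Of 5 regulators of metalloproteinases, 3 rose and 2 fell. A2m, a broad protease trap, went from a mean of 0.15 to 4.62 FPKM (adjusted p = 0.000153), and Reck, a membrane inhibitor of Mmp enzymes, from 39.6 to 13.5 FPKM (log2 fold change −1.51 ± 0.11, adjusted p = 3.54e-06 in edgeR). Of 6 tested Adamts-like genes, which lack the protease domain, 2 rose and 3 fell, from Adamtsl1 (2.21 ± 0.28) to Adamtsl3 (−3.03 ± 0.19) on the log2 scale. Of 4 genes that process procollagen none rose and 3 fell, from Bmp1 (−0.52 ± 0.16) to Tll1 (−2.65 ± 0.16). Versican, Vcan, was the tested lectican. It rose on day 3 (1.20 ± 0.25 on the log2 scale, adjusted p = 0.00309 in edgeR), was not called on day 5 (0.44 ± 0.25, adjusted p = 0.171) and was lower on day 7 (−0.81 ± 0.27, adjusted p = 0.0304). Of 7 Adam proteases 1 rose (Adam15, 1.67 ± 0.31) and 2 fell (Adam19 most, −0.95 ± 0.12). Without day 3 replicate 2 the call of Bmp1 was lost (adjusted p = 0.193), while A2m (4.90 ± 0.72, adjusted p = 0.000721) and Vcan (0.82 ± 0.25, adjusted p = 0.0301) were still called in edgeR.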

How the data were processed

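RNA was amplified with a kit that keeps no molecular identifiers and sequenced, and the authors aligned reads to Rnor_6.0 with STAR and estimated genes with RSEM. The deposited values used here are the RSEM expected count per gene (not normalized), the deposited FPKM (per effective length and library total) and the deposited TPM (scaled to the same total in each library). A table of the same counts was not used, nor a table of module numbers with 8 columns of FPKM whose names give no tissue. Whether counting used strand is not given in the sources used here.

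Expected counts were rounded and tested with edgeR 4.0.16 (filterByExpr, TMM, quasi-likelihood F test, Benjamini-Hochberg over all genes tested, called under 0.05). Libraries of 1 tissue entered its own fit, and all 16 libraries the comparisons between tissues. Scripts were tested on simulated data. FPKM levels are descriptions. A gene with at most 3 expected counts in each library of a group is at the floor, and a fold against it is a bound. Counting error alone is covered by such bounds. DESeq2 1.42.0, upper quartile and RLE scaling, no filter, a replicate block, leaving out each library, a fit of all 16 libraries and TPM were the alternatives, and scaling to library totals, and leaving out a library for the related genes, were chosen after seeing the data. Values were named for the Timp genes, for genes called in Schwann cells with a mean of at least 1 FPKM in a group, for genes called in whole nerve with a mean of at least 5 FPKM there, for the 3 lowest adjusted p in each direction of each comparison between tissues and of each difference in injury effect, and for the extremes of each related list on day 3. Adamts8, Mmp9 and Mmp24, and the neighbouring Mmp genes, were named after their values were seen. Members and lists were chosen with earlier results of these data known. Promoters came from RefSeq (GRCr8), and 11 genes had none in that table.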

Additional observations from a re-analysis of the deposited data

Results flagged for a closer look

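The change after crush differed between Schwann cells and whole nerve, by the test of the difference itself in edgeR, for the genes below. Values are log2 differences, Schwann cells minus whole nerve. On day 3 they were −3.77 for Adamts17, −3.35 for Adamts12, −2.12 for Adamts15, −1.96 for Timp1, −1.51 for Mmp2, −1.17 for Adamts7, −0.92 for Adamts2, −0.89 for Adamts20 and −0.82 for Adamts5, and 1.70 for Adamts4, 1.35 for Mmp19, 1.10 for Mmp14 and 0.51 for Mmp15. Those of day 5 were −4.62 for Adamts12, −2.76 for Adamts17, −2.63 for Adamts15, −1.98 for Adamts2, −1.94 for Adamts7, −1.86 for Mmp2, −1.81 for Timp1, −1.26 for Adamts20 and −1.16 for Adamts5, and 1.34 for Adamts10, 1.25 for Mmp24, 1.18 for Mmp19, 1.13 for Mmp14, 1.03 for Adamts4 and 0.46 for Mmp15. Day 7 gave −4.85 for Adamts12, −2.63 for Adamts15, −2.49 for Adamts2, −2.0 for Adamts17, −1.74 for Adamts7, −1.50 for Timp1, −1.44 for Adamts20, −1.32 for Mmp2 and −0.70 for Adamts5, and 1.46 for Mmp14, 1.25 for Adamts4, 1.24 for Adamts10 and 0.48 for Mmp15. On library totals, the differences of Mmp15 became 0.15, 0.21 and 0.23 and were not called (adjusted p 0.443, 0.306 and 0.246 in edgeR), nor was that of Adamts4 on day 5 (0.77, adjusted p = 0.0758).

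Adamts14 and Adamts8 each had a group at the floor, so no size is given. The adjusted p in edgeR was 1.11e-06, 3.34e-07 and 1.08e-06 for Adamts14 and 0.000807, 0.000327 and 0.00115 for Adamts8 on days 3, 5 and 7.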

How the results depend on the processing

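Counts of called genes stayed within 1.5 times under every alternative run, except between days 3 and 7 in whole nerve, where leaving out a library gave 7 to 13 in place of 14. Of the 2706 refits of 242 named results, 2492 kept direction and call, 208 kept direction and lost the call (158 of these on leaving out a library) and 6 turned sign. The 6 turned on library totals in whole nerve: log2 fold changes on day 5 became 0.059 for Mmp14, 0.074 for Timp2 and 0.013 for Timp3, and on day 7 0.038 for Adamts2, 0.08 for Mmp15 and 0.018 for Timp3. That scaling was chosen after seeing the data. Replicate numbers did not pair the libraries (correlation of deviations −0.06 to 0.08 within and between tissues), and with the replicate block 1 of 242 named calls was lost. In TPM, 32 genes reached 1 in a group, as in FPKM. Upper quartile scaling moved log2 differences between tissues by a median over all genes of 0.14 on day 5 and 0.10 on day 7. With 2 libraries a group, small changes and low counts are the least certain.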
